A study of Mus musculus with 3 samples.

Results

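The 36 genes described here are transcribed when cells copy their DNA and divide. They were picked by symbol from the 28692 genes in the files, and all 36 matched 1 gene each. There are 12 genes of DNA replication and nucleotide supply, called the S-phase members below, and 24 genes of chromosome condensation, the spindle and mitotic control, called the mitotic members. A cell barcode (the tag of a captured droplet) was counted as cycling when it held at least 3 UMIs of the 36 genes after its UMIs had been drawn down at random to 1000. A UMI (unique molecular identifier) counts 1 captured transcript. By that rule 405 of the 9699 barcodes with at least 1000 UMIs were cycling, out of 14226 barcodes that passed quality filters.

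The study holds 3 single-cell RNA libraries of 1 group, made from mouse mammary tumours of the 2208L tumour cell line. The cells had been injected into the mammary gland and grown for 4 weeks, and tumours were taken at a diameter of 0.7 to 1 cm. Viable leukocytes were sorted as CD45-positive and DAPI-negative, CD45 being the surface protein of blood-derived cells and DAPI a dye that enters dead cells. No treatment, genotype or control group is named in the labels, and the sources used here do not give the mice's age or strain. The labels do not tie the 3 libraries to separate animals, so p-values speak only for the spread between these samples, which may be technical.

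The cell cycle runs from G1 through DNA synthesis (S phase) and G2 to mitosis. Genes of replication are switched on by E2F factors before S phase. Mitotic genes are switched on later, through the factors NF-Y, B-MYB and FOXM1, which use promoter elements named CCAAT box and CHR. Mature neutrophils leave the cell cycle in the bone marrow, whereas T cells divide after antigen contact and many tissue macrophages and dendritic cells can divide where they live.

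The libraries held 9846404, 15259236 and 9445914 UMIs over 4424, 6036 and 3876 barcodes, and 91 barcode sequences occurred in more than 1 library. Clusters were formed without the cell-cycle genes and named by marker genes, so that the classes owe nothing to the 36 members. The markers of each class were present where its name says: summed T-cell markers reached 7065 to 7354 CPM (a gene's UMIs scaled to the total of that class and library) in T-cell-like barcodes against 50.9 to 129 CPM in neutrophil-like ones. The plasmacytoid-dendritic-cell-like class was less clean. Its own markers summed to 7711, 5309 and 8381 CPM in libraries 1 to 3. Macrophage markers summed to 380, 6207 and 226 CPM there, and monocyte markers to 8567, 6175 and 10698 CPM. The epithelial-like class held little RNA of Ptprc, the gene of CD45, at 12.8, 27.9 and 7.78 CPM in libraries 1 to 3 against 358, 384 and 355 CPM in T-cell-like barcodes, so these barcodes go against the CD45 sort.

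Cycling barcodes were found among T cells, macrophages, dendritic cells and epithelial cells, and hardly at all among neutrophils. Of T-cell-like barcodes, 5.71% ± 0.653 (SD, n = 3 libraries) were cycling, with 6.05%, 6.12% and 4.95% in libraries 1, 2 and 3. Monocyte/macrophage-like barcodes followed at 5.18% ± 1.15, with 5.78%, 3.85% and 5.90%. At this depth their ranges over libraries overlapped, and their order switched in library 3. Thinned to 2000 UMIs, the ranges came apart, at 31.5%, 24.2% and 13.1% in T cells against 9.12%, 6.22% and 10.2% in macrophages. That depth was reached by 149, 384 and 275 of 1131, 1391 and 683 T-cell-like barcodes. Of 996, 1457 and 533 monocyte/macrophage-like ones, 877, 1319 and 501 reached it. Cycling T-cell-like barcodes were deeper than the others before thinning, so the cut keeps a larger part of them. The values at this depth therefore do not order the 2 classes. Dendritic-cell-like barcodes reached 7.63% ± 2.44, with 10.4%, 5.67% and 6.85%, and overlapped with both.

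Neutrophil-like barcodes were cycling in 5 of 2489 cases, 0.201% (95% Clopper-Pearson interval 0.0653 to 0.468), with 0%, 0.287% and 0.234% per library. All 5 held exactly 3 member UMIs, the least that counts, and all lay in the neutrophil cluster led by Siglecf. In each library the counting interval of the neutrophil share lay below those of the T-cell-like and monocyte/macrophage-like shares. No plasmacytoid-dendritic-cell-like barcode of 212 was cycling, which allows a share of up to 1.42% by 3 counts of the total, or 1.72% by the upper Clopper-Pearson bound. Of these, 162 came from library 2, where the class held more macrophage marker RNA than RNA of its own markers. NK-cell-like barcodes gave 7 of 431, 1.62% (0.655 to 3.32). Free RNA in the droplets can give UMIs to cells that do not express a gene, and its part in these shares was not tested. Median depths were 902 UMIs in neutrophil-like and 1425 in T-cell-like barcodes, and all were thinned alike.

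Epithelial-like barcodes, which the sort should have removed, were cycling most often, at 16.9% ± 4.38 (41 of 242), with 21.2%, 17.1% and 12.5% in libraries 1 to 3. In this draw every library of the class lay above every library of the named leukocyte classes. That separation was lost in a second random draw, where the epithelial-like share was 11.98% ± 4.38 and library 3 had 7.50% against 9.33% in dendritic-cell-like barcodes of library 1. It was also lost with 600 UMIs (5.75% against 7.69% in the same libraries) and with 2000 UMIs, where T-cell-like barcodes of library 1 had 31.5% and epithelial-like ones of libraries 2 and 3 had 26.4% and 26.5%. T-cell-like barcodes made up 37.0% of all cycling barcodes but 26.6% of those deep enough, monocyte/macrophage-like ones 35.1% and 30.1%, and neutrophil-like ones 1.23% and 25.7%.

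**Figure D1:**
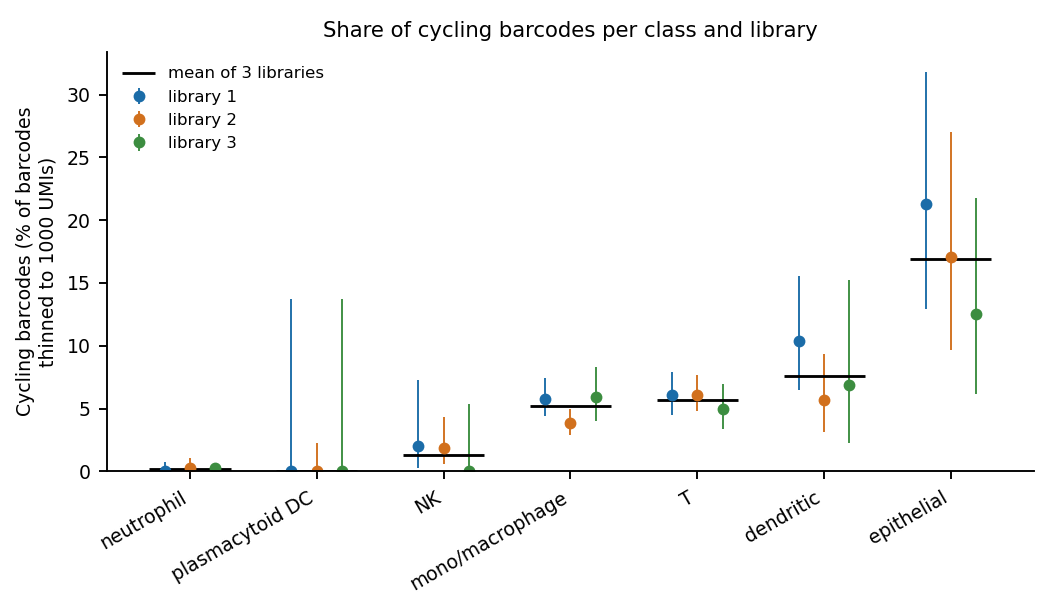
Share of cycling barcodes (y axis, percent of barcodes thinned to 1000 UMIs) in 7 classes (x axis). Points are libraries with 95% Clopper-Pearson intervals, which cover counting error only, and black lines are means of 3 libraries: neutrophils stay under 0.3% and epithelial-like barcodes reach 16.9%.

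The shares rest on what the threshold includes. Just inside it, 31 T-cell-like and 44 monocyte/macrophage-like barcodes held 3 member UMIs, and just outside it 76 and 68 held 2. At the other end, 23 T-cell-like barcodes held 10 or more, up to 20 of 1000 UMIs, against 3 monocyte/macrophage-like ones. Cycling barcodes were also deeper before thinning, with medians of 3656 UMIs against 1559 among T-cell-like and 6752 against 4204 among monocyte/macrophage-like barcodes. Their doublet scores were 0.0385 against 0.0186 and 0.0492 against 0.0427 (medians), and the part of doublets in the shares was tested only by leaving out the top scores, which left both shares within 1 SD. Without thinning, 7.76% of T-cell-like and 17.4% of monocyte/macrophage-like barcodes held 3 member UMIs, an order that follows their depth.

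Within the classes the shares were uneven. Among monocytes and macrophages, the cluster led by Tmem119 and the complement genes C1qc and C1qb held 114 of the 142 cycling barcodes, a share of 8.71% ± 1.47, with 9.27%, 7.04% and 9.82% in libraries 1 to 3. In the cluster led by Ccl8 and Retnla, genes of resident-type macrophages, the share was 2.69% ± 0.591. The monocyte cluster, led by Ms4a4c and Plac8, had 0.902% ± 0.160, or 7 of 832. The ranges of the 3 clusters did not overlap. Summed member RNA followed the same order, at 819 ± 126, 413 ± 39.9 and 234 ± 73.3 CPM.

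Dendritic cells split likewise. In the cluster led by Plet1, Ppp1r1a and Xcr1, the last a receptor of cross-presenting conventional dendritic cells, 38 of 419 barcodes were cycling (9.17% ± 3.23). Under the stricter barcode filter a cluster led by Cd209a (415 barcodes) stood apart from one led by Xcr1 and Dnase1l3 (117 barcodes), so this share is not that of cross-presenting cells alone. In the cluster led by Ccr7 and Fscn1, which mark dendritic cells on their way to lymph nodes, 1 of 94 was. Member RNA summed to 925 ± 191 and 370 ± 308 CPM in these clusters, and the second value was 722 CPM in library 2 against 148 and 239 CPM in the others.

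Among T cells, barcodes with Cd8a or Cd8b1 and neither Cd4 nor Foxp3 were cycling in 10.4% ± 2.51 (94 of 945), with 13.3%, 8.86% and 9.0% in libraries 1 to 3. Barcodes with Trdc, a gamma-delta receptor gene, and no CD4, CD8 or Foxp3 transcript reached 2.93% ± 0.118 (18 of 614), below the CD8 barcodes in each library. Of 124 other CD4 barcodes 4 were cycling, and of 34 with Foxp3, the factor of regulatory T cells, 1 was, which is too few to place them. CD8 barcodes with and without Gzmb, a killing granule enzyme, had shares of 10.3% ± 3.19 and 10.6% ± 2.22. These subsets were set by transcripts found at full depth, and deeper barcodes show more of them. When the subset was set on the thinned UMIs, CD8 barcodes had 7.96% ± 1.29 and gamma-delta ones 2.52% ± 0.412. CD8 barcodes with and without Gzmb then had 6.48% ± 3.18 and 8.70% ± 1.44, with 3.17% against 9.68% in library 3, and the ranges overlapped.

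By cluster, T cells led by Ccl1 and Xcl1, which also expressed Cd8a and the exhaustion gene Pdcd1, had the widest range: 10.5%, 16.6% and 28.6% in libraries 1 to 3, on 19, 169 and 14 barcodes. The cluster with Gzmk, a granzyme of memory-type CD8 cells, had 7.91% ± 2.53. The cluster led by Il17a and Trdc had 2.68% ± 0.0918, and the one led by Tnfrsf4 and Tnfrsf18, receptors of activated and regulatory CD4 cells, 2.93% ± 0.762. The clusters were singled out after their shares were seen, so no test is given.

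**Figure D2:**
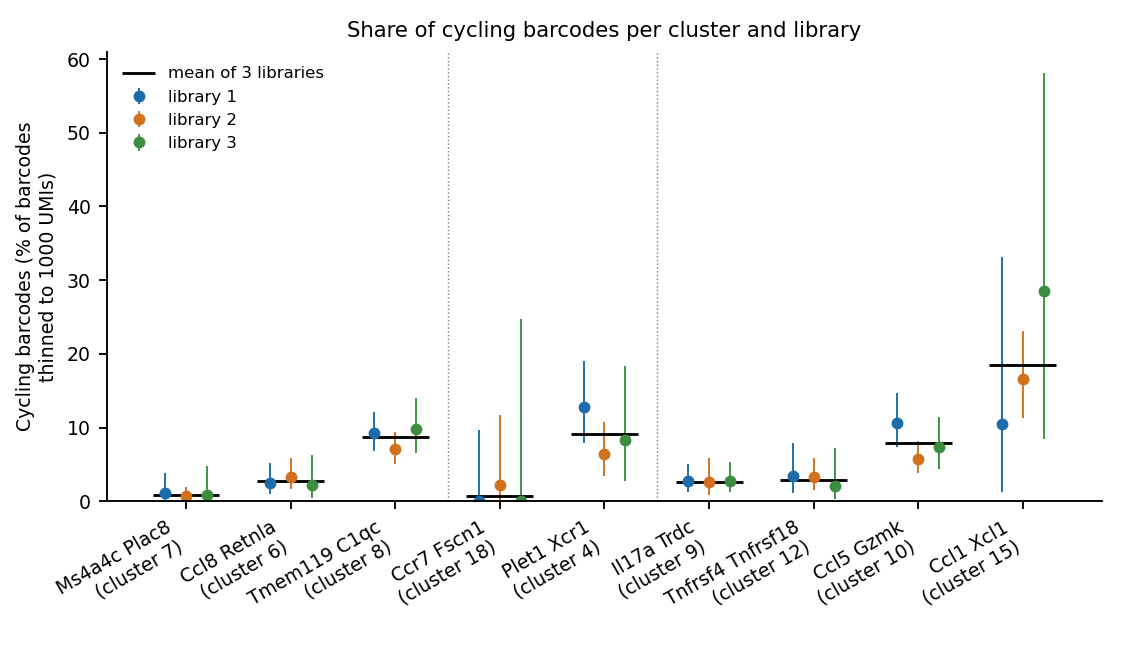
Share of cycling barcodes (y axis, percent of barcodes thinned to 1000 UMIs) in 9 clusters named by leading genes (x axis), from left to right monocyte/macrophage-like, dendritic-cell-like and T-cell-like, divided by dotted lines. Points are libraries with 95% Clopper-Pearson intervals and black lines are means: the Tmem119 cluster has 8.71% against 0.902% in the Plac8 cluster.

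The same genes were then compared as levels, by summing UMIs per class and library and testing with edgeR's quasi-likelihood test over 9496 genes, with Benjamini-Hochberg adjustment at 0.05 and library as a block. A gene entered when any class expressed it, and a member that entered only through a class where it is high had to differ, so the counts below are a description. Of the 36 members 32 were tested, and Plk1, Bub1, Bub1b and Kif20a were too low. In such sums fewer cells that transcribe a gene and less RNA per cell cannot be told apart. T-cell-like barcodes had 29 of the 32 tested members higher than neutrophil-like barcodes and 0 lower, where 30.2% of all genes were higher and 34.8% lower. Monocyte/macrophage-like barcodes had 26 higher and 1 lower, where 33.4% of all genes were higher and 32.2% lower. The median log2 difference of the tested members was 3.41 for T cells and 2.73 for macrophages.

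The replication helicase comes first in the cycle. Mcm6, a subunit of the MCM ring that opens DNA, had 32.1, 39.9 and 40.1 CPM in T-cell-like barcodes of libraries 1 to 3. In monocyte/macrophage-like barcodes it had 18.8, 14.9 and 17.6 CPM, and in neutrophil-like ones 1.27, 0.960 and 1.47 CPM. The 3 classes did not overlap, and Mcm6 was 1.11 ± 0.19 (log2 fold change ± SE) higher in T cells than in macrophages (edgeR adjusted p = 9.8e-06, higher in 3 of 3 libraries). Mcm7, another ring subunit, behaved otherwise in neutrophils, at 10.2, 10.6 and 9.95 CPM. In macrophages it was 12.6, 11.9 and 11.0 CPM, and the 2 classes did not differ by the test (log2 difference -0.04 ± 0.24). All 7 genes of the helicase group were higher in T cells than in neutrophils, where 30.2% of all genes were higher. Of the 7, 4 were higher in T cells than in macrophages, where 26.2% of all genes were higher.

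Pcna, the sliding clamp that holds DNA polymerase, was the most abundant S-phase member in T cells and in neutrophils, and of the 12 it differed least between them. It had 58.6, 63.5 and 53.7 CPM in T-cell-like, 48.3, 39.0 and 48.9 in monocyte/macrophage-like and 35.7, 39.4 and 36.9 CPM in neutrophil-like barcodes. The T-cell values lay above both others in every library, but the difference from neutrophils did not pass (log2 0.36 ± 0.19, edgeR adjusted p = 0.095). In mature neutrophils PCNA protein is known to sit in the cytoplasm, away from DNA. Pcna made up 238 of the 859 member UMIs in neutrophil-like barcodes, and 327 of 5043 in T-cell-like ones.

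Nucleotide supply separated the classes more. Rrm2, the regulated subunit of ribonucleotide reductase, had 51.0, 51.9 and 58.7 CPM in T-cell-like barcodes. In monocyte/macrophage-like barcodes it had 21.5, 12.9 and 18.5 CPM and in neutrophil-like ones 3.82, 3.84 and 1.47 CPM. Its difference between T cells and macrophages was the largest of the tested members, at log2 1.62 ± 0.22 (edgeR adjusted p = 9e-08). Tyms, which makes thymidylate, was 1.42 ± 0.25 higher in T cells, whereas Rrm1, the other subunit of the reductase, did not pass (0.00 ± 0.19).

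Of the mitotic members, Top2a, which untangles DNA, had 68.7, 73.8 and 52.3 CPM in T-cell-like barcodes. In macrophages it had 35.96, 23.9 and 34.6 CPM and in neutrophils 3.82, 2.88 and 2.21 CPM. The T-cell values were higher in 3 of 3 libraries, by log2 1.08 ± 0.16 over macrophages (edgeR adjusted p = 6.6e-07). Over neutrophils they were 4.2 ± 0.28 higher. Top2a was low in neutrophils and may have entered the test only through other classes, so that difference is a description. Mki67, which coats mitotic chromosomes and is read as Ki-67 in tumour pathology, was lower in level, at 23.9, 28.7 and 19.3 CPM in T cells and 20.6, 12.2 and 16.7 CPM in macrophages. Its neutrophil values were 2.55, 1.92 and 0.737 CPM.

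Cdk1, the kinase that drives mitosis, and its cyclin partner Ccnb2 were both higher in T cells than in macrophages, by log2 0.71 ± 0.24 and 0.76 ± 0.23. Ccnb2 had 27.7, 33.5 and 29.4 CPM in T cells, 19.7, 11.9 and 24.2 CPM in macrophages and 0.637, 0.960 and 2.21 CPM in neutrophils. The 4 genes of the chromosomal passenger and kinase group that were tested (Birc5, Cdca8, Aurka and Aurkb) did not pass between T cells and macrophages. Of all genes, 26.2% were higher and 32.6% lower in that comparison. Birc5, the passenger subunit survivin, had 71.2, 73.4 and 52.3 CPM in T cells and 52.0, 37.3 and 61.4 CPM in macrophages, and the 2 ranges overlapped.

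Ube2c and Cdc20 work with the anaphase-promoting complex, which marks cyclins for destruction. Ube2c had 54.2, 80.6 and 55.1 CPM in T cells, 34.6, 28.0 and 47.1 CPM in macrophages and 4.46, 2.88 and 5.16 CPM in neutrophils, and Cdc20 was 1.07 ± 0.31 (log2) higher in T cells than in macrophages. Cenpa, the histone of centromeres, had the highest mean level of the mitotic members in T cells, at 65.5, 101 and 78.8 CPM, against 63.9, 48.8 and 79.3 CPM in macrophages. Those values overlapped, and Cenpa also had the highest mean mitotic level in neutrophils, 10.2, 9.12 and 9.58 CPM. Nusap1, which bundles spindle fibres, was 1.44 ± 0.25 higher in T cells than in macrophages, with 32.8, 40.3 and 37.2 against 12.8, 9.40 and 20.6 CPM.

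Between T cells and macrophages 16 of the 32 tested members were higher in T cells and 0 lower, where 26.2% of all genes were higher and 32.6% lower. The median log2 difference was 0.58, against -0.07 over all genes, and without library 2 the counts were 10 higher and 1 lower. Comparisons that share a class share its sums, so the counts are not independent of each other.

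A few members did not follow the rest in neutrophils. Kif23, a kinesin of the late mitotic midzone, had 7.01, 9.12 and 4.79 CPM in neutrophil-like and 3.66, 3.54 and 4.47 CPM in monocyte/macrophage-like barcodes, and was lower in macrophages by the test (log2 -1.08 ± 0.34, edgeR adjusted p = 0.0063). That call was lost without library 1, without library 2, without the top doublet scores and under the stricter barcode filter. Aurka, a spindle-pole kinase, had 3.19, 3.84 and 4.79 CPM in neutrophils and 6.87, 4.16 and 8.35 CPM in macrophages and did not pass. Kif11, another spindle kinesin, had 0 UMIs in neutrophils of all 3 libraries, so no fold is given for it. S-phase members made up 60.5% ± 1.94 of member UMIs in neutrophil-like barcodes, with 58.7%, 60.1% and 62.6% in libraries 1 to 3. In T-cell-like barcodes they made up 37.3% ± 1.07 and in monocyte/macrophage-like ones 35.4% ± 3.94, so no library of those classes reached the neutrophil values.

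**Figure D3:**
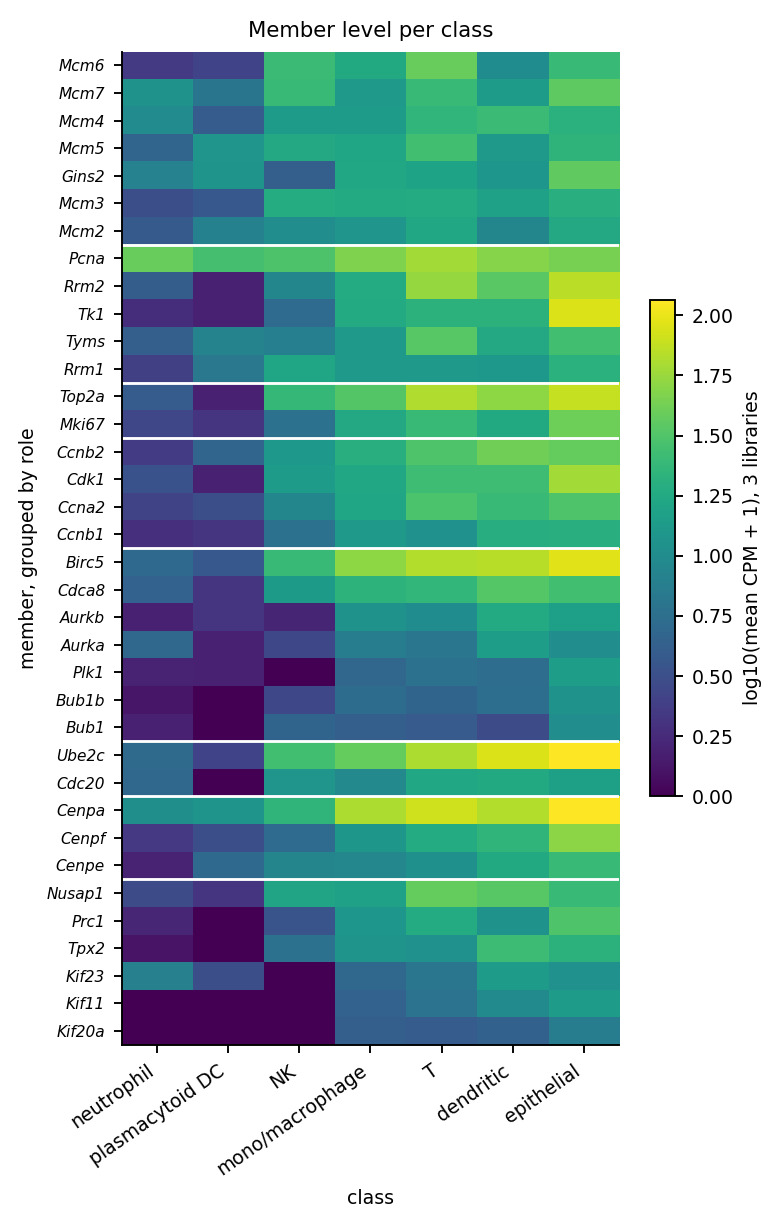
Mean level of each of the 36 members (rows, grouped by role with white lines) in 7 classes (columns), as log10(mean CPM + 1) over 3 libraries. Pcna keeps a level of 37.3 CPM in neutrophils, where Top2a has 2.97 CPM.

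**Figure D4:**
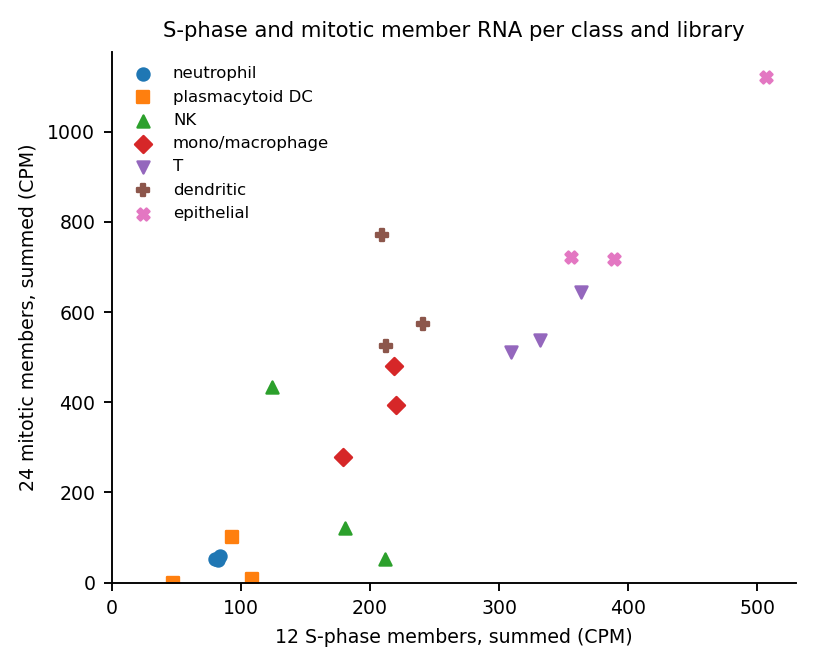
Summed CPM of the 12 S-phase members (x axis) against the 24 mitotic members (y axis); each point is 1 library of 1 class. Neutrophil points lie at 80.2 to 83.5 and 49.4 to 58.6 CPM, T-cell points at 309 to 364 and 512 to 644 CPM.

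Among the members, dendritic cells differed from macrophages mainly in mitotic RNA. Their S-phase members summed to 221 ± 17.5 CPM, against 206 ± 23.3 CPM in macrophages, and their mitotic members to 623 ± 130 against 385 ± 101 CPM. Of the 32 tested members 14 were higher in dendritic-cell-like than in monocyte/macrophage-like barcodes and 0 lower, where 14.2% of all genes were higher and 16.1% lower. Of these 14, 12 were mitotic, among them Ube2c (log2 1.40 ± 0.27), Ccnb2 (1.34 ± 0.26) and Kif23 (1.62 ± 0.39). The S-phase members that passed were Mcm4 (1.07 ± 0.27) and Rrm2 (1.04 ± 0.29). Ube2c had 127, 71.7 and 70.8 CPM in dendritic cells, above every macrophage library. The count fell to 8 with DESeq2, to 8 without library 1, and to 7 when barcodes needed 500 genes and at most 5% mitochondrial UMIs.

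NK cells, the other cytotoxic lymphocytes, had less. In NK-cell-like barcodes 0 of the 32 tested members were higher than in T-cell-like ones and 11 were lower, where 3.66% of all genes were higher and 4.62% lower. Rrm2 had 16.2, 7.52 and 0 CPM and Top2a 37.9, 18.8 and 11.7 CPM in NK cells, and both were lower (log2 fold changes -2.75 ± 0.55 and -1.60 ± 0.34). Both genes may have entered the test only through other classes, so these differences are a description. The mitotic sum was uneven, at 433, 120 and 52.8 CPM in libraries 1 to 3. The 11 calls fell to 4 without library 2 and to 5 with DESeq2. At Leiden resolution 0.5, where the Ccl1 and Xcl1 T cells joined the NK class, 0 members were called, and the direction turned for Top2a, Mki67, Birc5, Ube2c, Cenpa and Nusap1.

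Epithelial-like barcodes had 12 of the 32 tested members higher than T cells and 1 lower, where 34.5% of all genes were higher and 24.5% lower, so the count higher is near the background. Tk1, which salvages thymidine, stood out with 110, 74.0 and 81.2 CPM against 15.1, 26.7 and 18.6 CPM in T cells (log2 2.06 ± 0.21, edgeR adjusted p = 6.4e-10). Without library 1 the counts were 2 higher and 4 lower.

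The members' promoters were read from RefSeq windows on GRCm38.p6 (250 bases before to 50 after each annotated start), which held 30 of the 36 members. Mcm4, Gins2, Kif20a, Tpx2, Ccna2 and Aurkb were not matched. The letters searched on both strands were TTTGAA for CHR, CCAAT, and TTTGGCGC, TTTCCCGC, TTTGCCGC or TTTCGCGC for E2F. CHR was found in 15 of 20 mitotic and 1 of 10 S-phase members, and in 20.2% of all 27025 genes with a window. CCAAT was found in 18 and 8 of them and in 41.1% of all genes. The E2F letters were found in 1 mitotic member, Cdk1, and in 4 S-phase members (Mcm3, Mcm5, Mcm6 and Mcm7), and in 2.6% of all genes. Both CHR and CCAAT were found in 15 of 20 mitotic members (75%), in 1 of 10 S-phase members and in 7.97% of all genes. These are letter matches, not shown binding sites.

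The 150 bases before the start of 6 members show both arrangements: Cdc20 at chr4:118437344-118437493 (minus strand), Cdk1 at chr10:69352913-69353062 (minus strand), Ube2c at chr2:164769779-164769928 (plus strand), Top2a at chr11:99024190-99024339 (minus strand), Mcm5 at chr8:75109359-75109508 (plus strand) and Mcm6 at chr1:128359706-128359855 (minus strand). The mitotic members come first and the S-phase members last, with CHR, CCAAT and E2F letters of either strand in capitals (in Mcm6 E2F matches of both strands overlap).
Cdc20: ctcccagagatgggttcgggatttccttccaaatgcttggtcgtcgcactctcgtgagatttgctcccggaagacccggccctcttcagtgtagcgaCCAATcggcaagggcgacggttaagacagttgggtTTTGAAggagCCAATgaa
Cdk1: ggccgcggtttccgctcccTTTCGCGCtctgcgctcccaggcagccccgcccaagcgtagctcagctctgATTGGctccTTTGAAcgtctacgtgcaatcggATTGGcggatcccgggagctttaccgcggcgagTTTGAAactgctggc
Ube2c: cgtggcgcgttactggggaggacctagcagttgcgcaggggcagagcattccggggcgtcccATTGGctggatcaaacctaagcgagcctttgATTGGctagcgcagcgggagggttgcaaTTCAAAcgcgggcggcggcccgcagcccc
Top2a: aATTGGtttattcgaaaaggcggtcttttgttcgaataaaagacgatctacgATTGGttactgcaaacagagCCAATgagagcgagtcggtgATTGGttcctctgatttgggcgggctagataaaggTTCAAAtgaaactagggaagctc
Mcm5: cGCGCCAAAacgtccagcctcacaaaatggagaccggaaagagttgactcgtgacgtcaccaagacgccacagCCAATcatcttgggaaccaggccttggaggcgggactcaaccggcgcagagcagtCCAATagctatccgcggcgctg
Mcm6: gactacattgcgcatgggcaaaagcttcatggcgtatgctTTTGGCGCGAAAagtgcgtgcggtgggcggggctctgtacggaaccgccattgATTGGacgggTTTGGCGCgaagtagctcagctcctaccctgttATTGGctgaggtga
In Cdc20, Ube2c and Top2a the CHR letters lie near the start, downstream of a CCAAT box. Cdk1 holds both CHR and E2F letters, and its RNA was counted among the mitotic members. Mcm5 and Mcm6 hold CCAAT and E2F letters and no CHR in the window.

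Whether the members appear in the same barcodes was read by leaving each gene out of its own split. Barcodes were called cycling by the other 35 members, and the left-out gene was then looked up. In T-cell-like barcodes Birc5 had a UMI in 54 of 146 such barcodes (37.0%) and in 0.287% of the rest, Top2a in 34.9% and 1.44%, and Ube2c in 29.9% and 0.369%. In monocyte/macrophage-like barcodes Birc5 had a UMI in 38.4% and 1.25%, and Cenpa in 29.6% and 2.89%. Pcna was less bound to the others, at 18.8% and 3.52% in T cells, and Mcm6 was found in 7.04% and 2.66%. In neutrophil-like barcodes only 2 to 5 were cycling by the others, and no left-out gene had a UMI in them, as follows from their 3 UMIs each. Of the 150 cycling T-cell-like barcodes, 89 held S-phase and mitotic members, 45 mitotic members only and 16 S-phase members only. Of the 142 monocyte/macrophage-like ones, the counts were 70, 64 and 8.

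Genes outside the 36 were then compared between cycling and other barcodes of the same class, on thinned UMIs summed per library. The split used only members, and members were left out of the tests. In T-cell-like barcodes 3687 genes were tested, of which 5.26% (194) were higher in cycling barcodes and 6.08% (224) lower. In monocyte/macrophage-like barcodes 3260 were tested, with 2.76% (90) higher and 3.16% (103) lower. Genes that passed the filter on low counts only through the cycling barcodes had to be higher there, so counts are also given for genes that passed on the other barcodes alone: 122 higher and 224 lower in T cells, and 46 and 103 in macrophages. These counts still hold genes that passed only through the other barcodes, which had to be lower in cycling ones. The counts of lower genes are therefore a description, and higher and lower counts cannot be weighed against each other. DESeq2 called 108 and 114 in T cells and 53 and 35 in macrophages. With library totals as scaling the split moved to 298 and 153 in T cells and 102 and 62 in macrophages. Without library 2 it was 88 and 139 in T cells and 61 and 61 in macrophages, and without library 3 macrophages had 32 and 21.

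Chromatin and tubulin genes rose together in cycling barcodes of both classes. All 19 listed genes were tested in T cells and 18 were higher, 15 of 15 among those that passed on the other barcodes alone; in macrophages 16 of 16 were higher, and 13 of 13. Hmgb2, a chromatin protein that bends DNA, had 4507, 4063 and 4831 CPM in cycling against 611, 539 and 564 CPM in other T-cell-like barcodes (log2 2.96 ± 0.09, edgeR adjusted p = 6e-22). In macrophages it had 1410, 1703 and 2030 against 213, 246 and 242 CPM (2.85 ± 0.15). Stmn1, which breaks down microtubules, was 4.96 ± 0.21 and 3.98 ± 0.27 higher, but it passed the filter only through the cycling barcodes. Tuba1b, an alpha tubulin, rose by 3.86 ± 0.15 in T cells and 1.71 ± 0.14 in macrophages.

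Hist1h2ap, a histone gene used in S phase, had 1524, 1988 and 2148 CPM in cycling T cells against 13.8, 10.2 and 1.34 CPM in the others (log2 7.88 ± 0.26, CPM with a prior count of 0.5 here and in the values below), and it was 5.80 ± 0.27 higher in cycling macrophages. In both classes it passed the filter only through the cycling barcodes, so it had to be higher there. Replication-dependent histone genes are near-identical copies, so reads could be split among them. Of 35 other replication genes 19 were tested in T cells and 17 were higher, among them Slbp (1.94 ± 0.26), which binds histone RNA. In macrophages 4 were tested and 3 were higher (Hells, Dut and Slbp). Of those that passed on the other barcodes alone, 4 of 6 were higher in T cells and 1 of 2 in macrophages, Slbp in each case among them. Of 48 other mitotic genes 21 were tested and 20 higher in T cells, and 14 and 13 in macrophages. Of those that passed on the other barcodes alone, 6 of 6 and 2 of 2 were higher. Pttg1, the guard of sister chromatids, was 3.10 ± 0.29 and 3.35 ± 0.41 higher, in macrophages as a gene that passed only through the cycling barcodes.

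Cycling T cells held less RNA of rest and memory genes. Of 10 naive and memory genes 7 were tested and 5 were lower, with a median log2 difference of -2.0 against -0.09 over all genes tested. Lef1, Tcf7 and S1pr1 had 0, 2 and 4 UMIs in cycling barcodes, too few to pass the filter there. They passed only through the other barcodes and so had to be lower, which makes the count and the median a description. Il7r, the receptor of a survival cytokine, had 86.0, 45.5 and 61.0 CPM in cycling against 431, 230 and 456 CPM in other barcodes (-2.50 ± 0.35). Tcf7, a factor of memory and stem-like T cells, was also lower (-2.76 ± 0.75). Lef1, its relative, had 0 UMIs in the cycling barcodes against 130 in the others, at least 2.67-fold lower at a floor of 3 UMIs over the cycling barcodes. Of 18 effector and activation genes 15 were tested, 2 were lower and 0 higher. The chemokine gene Ccl5 had 6178, 4490 and 5248 against 10970, 15080 and 13030 CPM (-1.30 ± 0.11), and the costimulatory receptor gene Icos was also lower (-1.03 ± 0.27).

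Cd8a was higher in cycling T cells (0.62 ± 0.20, edgeR adjusted p = 0.0415), and Cd3g, Cd3d and Lat, of the receptor complex and its signalling, were lower (-0.36 ± 0.11, -0.59 ± 0.14 and -0.71 ± 0.15). With other barcodes drawn to the cluster mix of the cycling ones, Cd8a lost its call (0.03, edgeR adjusted p = 0.96) and Ccl5 kept it (-1.67). Within CD8 barcodes alone Ccl5 was also lower (-2.0), and Cd8a turned to -0.17 without a call. With 2000 UMIs per barcode the Ccl5 difference was 0.07 and not called. Il7r, Tcf7 and Lef1 were not among the genes tested at the matched cluster mix or in CD8 barcodes alone. Neutrophil markers, which mark RNA from other cells here, were lower in cycling T cells (3 of 3 tested, S100a8 at -1.23 ± 0.30), and their summed share was 0.0271%, 0.0700% and 0.0437% of UMIs against 0.116%, 0.0875% and 0.0792%. Their part in the results was not tested.

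Some brakes of the cycle were lower in cycling barcodes. Of those that passed on the other barcodes alone, 4 of 14 were lower in T cells and 2 of 10 in macrophages. That filter does not take out genes that had to be lower. Btg1, an antiproliferative gene, was lower in cycling T cells (1905, 1061 and 1671 against 3422, 2838 and 3354 CPM, log2 -1.09 ± 0.11) and in cycling macrophages (-1.0 ± 0.18). Klf2, Btg2 and Tob1 were lower in T cells, and Btg2 in macrophages. The brakes called higher passed the filter only through the cycling barcodes and so had to be higher: Cdkn2c, an inhibitor of the G1 cyclin kinases, at 2.29 ± 0.45 and 3.88 ± 0.51, and Cdkn2a at 3.05 ± 0.50 in T cells. The same holds for Ccne1 and Cdk2, which act at the start of S phase, in T cells. Of the 5 listed G1 factors that passed on the other barcodes alone in T cells, Ccnd2 was lower. Ccnd3 was lower in macrophages, on 2 UMIs against 265 (a ratio of 0.148, counting interval 0.0178 to 0.539). It passed the filter only through the other barcodes, so it had to be lower.

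Cycling macrophages held less RNA of monocyte genes and slightly more complement RNA. Of 7 monocyte genes 5 were tested and all 5 were lower, where 3.16% of all genes were lower. In cycling T cells 2 of the 4 tested were lower too, Ly6c2 (-0.92 ± 0.19) and Ccr2 (-0.83 ± 0.26), where 6.08% of all genes were lower. Ccr2 was -0.95 ± 0.21 in macrophages. Plac8, high in blood monocytes, had 194, 199 and 198 CPM in cycling against 844, 2248 and 1428 CPM in other barcodes (-2.92 ± 0.23, edgeR adjusted p = 5e-12). Ly6c2, the surface marker of inflammatory monocytes, had 2 UMIs against 895 (ratio 0.0438, counting interval 0.00529 to 0.159), though reads of Ly6c1 and Ly6c2 may be split because the genes are near-identical. Ly6c2 passed the filter only through the other barcodes, so it had to be lower. Lgals3, a lectin of activated macrophages, was lower too (-1.13 ± 0.17). C1qc was higher, at 4381, 4455 and 5498 against 3622, 2672 and 3684 CPM (0.53 ± 0.11), as was the chemokine receptor gene Cx3cr1 (0.94 ± 0.18).

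The clusters named above hold the cycling barcodes unevenly, and the comparison changed when other barcodes were drawn to the same cluster mix: 70 genes were higher and 43 lower. Plac8 stayed lower at -1.28 (edgeR adjusted p = 0.013), Lgals3 at -1.23 and Cx3cr1 stayed higher at 0.62, while C1qc (0.02), Ccr2 (-0.31) and Ms4a4c (-0.47) lost their calls. Neutrophil markers were lower in cycling macrophages as well (3 of 7 tested, S100a8 -2.04 ± 0.25), and summed to 0.0536%, 0.0982% and 0.0710% of UMIs against 0.219%, 0.234% and 0.152%; their part was not tested.

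**Figure D5:**
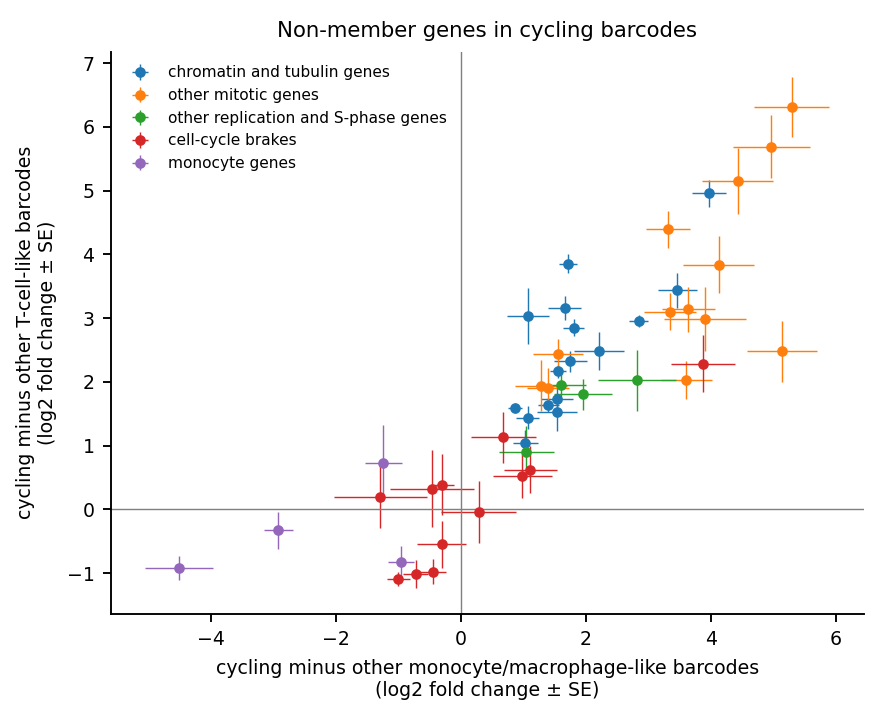
Log2 fold changes between cycling and other barcodes for genes outside the 36 that were tested in both classes, monocyte/macrophage-like (x axis) and T-cell-like (y axis), with bars of 1 SE and colours for 5 gene lists. Chromatin and mitotic genes lie above 0 on both axes, but genes that passed the filter only through the cycling barcodes had to lie there. Of the mitotic genes tested, 2 of 14 in macrophages and 6 of 21 in T cells passed on the other barcodes alone. Plac8 lies at -2.92 on the x axis and -0.33 on the y axis.

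Whether cycling had the same effect in the 2 classes was tested as an interaction over 4538 genes with library totals as scaling. The effect was higher in T cells for 1.01% (46) and higher in macrophages for 0.309% (14). With TMM scaling the counts were 28 and 63 and with DESeq2 26 and 27, so the split depends on the scaling. Leaving out library 1, 2 or 3 gave 38, 27 and 36 genes in all. Of the tubulins and chromatin genes, Tuba1b differed by log2 2.24 ± 0.19 (edgeR adjusted p = 1.2e-27), Hmgn2 by 1.61 ± 0.27 and H2afz by 0.71 ± 0.15, a call that H2afz lost with TMM scaling (0.47, edgeR adjusted p = 0.12) and without library 2 (0.53).

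In epithelial-like barcodes 546 genes were tested and 1.28% (7) were higher and 0.549% (3) lower in cycling barcodes. Among genes that passed on the other barcodes alone, 5 were higher and 3 lower. H2afz (1.55 ± 0.26) was one of them, whereas Tuba1b (1.90 ± 0.34) and Cks1b (1.94 ± 0.32), a cofactor of cyclin kinases, passed only through the cycling barcodes. Spp1, the gene of osteopontin, was lower (3861, 3393 and 2575 against 12090, 9390 and 13810 CPM; log2 -1.80 ± 0.17), as were Igfbp5 and Malat1. Leaving out library 1, 2 or 3 gave 5, 30 and 0 called genes. Cycling dendritic cells numbered 20, 14 and 5 per library, too few in library 3 for the same comparison.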

How the data were processed

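Single-cell 5′ or 3′ RNA libraries (the labels name both chemistries) of 3 samples of 1 group were used. The deposited values are UMI counts per gene and barcode, not normalized by the authors. Cell Ranger, Seurat and mm10 are named per the submitters' processing notes, versions not given in the sources used here. Members and gene lists were chosen with earlier results of these data known.

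Barcodes under 200 genes or over 10% mitochondrial UMIs were removed. Clustering (scanpy 1.11.5, Leiden resolution 1, 2000 variable genes, 30 components) left out cell-cycle genes, and classes were named from markers. A cluster led by T-cell genes with a median doublet score over 0.15 was left unnamed after its scores were seen. The doublet caller marked too few barcodes to have worked, so the top scores were left out as an alternative. Shares rest on 1 random draw of 1000 UMIs per barcode, with Clopper-Pearson intervals (95%) that cover counting error only.

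Counts were summed per class or split and library, and tested with edgeR 4.0.16 (quasi-likelihood test, TMM, library as a block, Benjamini-Hochberg adjustment) in R 4.3.3, with DESeq2 1.42.0 as an alternative. The 2 sums compared were made from 1 library each time, so the library pairs them. The interaction was scaled by library totals. The fits were first tested on simulated data. Alternatives in depth, threshold, filter, scaling, clustering and replicates were tried, and the second random draw and the mixed cluster counted as T cells were added after seeing the data. Of non-members, the text names genes by this rule: the 10 highest and 10 lowest called changes with mean log2 CPM of at least 5 and 1 direction in 3 of 3 libraries, and up to 4 called members of each list by lowest p. Genes that lead clusters, and list genes named beside small counts, were named after their values were seen.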

Additional observations from a re-analysis of the deposited data

Results flagged for a closer look

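The effect of cycling differed between T-cell-like and monocyte/macrophage-like barcodes for 12 named genes, by the interaction in edgeR's quasi-likelihood test with Benjamini-Hochberg adjustment, given here as log2 differences, T cells minus macrophages. Among chromatin and tubulin genes, which were higher in cycling barcodes of both classes, the difference was 2.24 for Tuba1b, 2.05 for Tuba1c, 1.61 for Hmgn2, 1.10 for Stmn1 and 0.71 for H2afz, and it was 2.18 for the histone gene Hist1h2ap. For monocyte genes it was 2.70 for Plac8, 3.69 for Ly6c2 and 8.83 for Ly6c1, the last resting on 0 UMIs in cycling macrophages. It was 2.78 for Fabp5, a fatty-acid carrier that was higher in cycling T cells and lower in cycling macrophages. It was 7.71 for the cytokine receptor gene Il2rg, with 0 UMIs in cycling macrophages, and 5.26 for the dendritic cell gene Cd209a, which was not tested in T-cell-like barcodes alone, where it had 6 UMIs in cycling and 5 in other barcodes, and whose difference was 0.85 and not called without library 2. Fitted values of genes with 0 UMIs depend on the prior count and are no bounds.

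Some of these calls depended on the setting. The interaction was not run at a matched cluster mix, at which the Plac8 difference in macrophages was smaller, as given above. With TMM scaling H2afz (0.47) and Stmn1 (0.86) were not called, and DESeq2, which gave a value for 7 of the 12, did not call Hist1h2ap (2.39) or Stmn1 (1.04). Without a filter on low counts Tuba1c, Il2rg and Stmn1 were not called. Stmn1 and Il2rg lost the call whichever library was left out, Tuba1c without library 1 or 2, and Hist1h2ap, H2afz and Cd209a without library 2.

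Cycling barcodes were also found in clusters left out of all classes. The cluster with T-cell genes and a high doublet score had 9 of 108 cycling (8.33%), and the cluster led by Vcam1 and Cx3cr1 had 10 of 143 (6.99%), both above the 0.201% of neutrophil-like barcodes. Of their cycling barcodes 44.4% and 30% were among the top doublet scores.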

How the results depend on the processing

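The share of cycling T-cell-like barcodes was 2.88% with 600 UMIs per barcode, 22.9% with 2000, 8.59% at 2 member UMIs, 3.76% at 5 and 3.88% with mitotic members alone. For monocyte/macrophage-like barcodes the same settings gave 2.79%, 8.51%, 7.60%, 2.23% and 3.41%. For neutrophil-like barcodes 2000 UMIs gave 1.60%, 2 member UMIs 1.40%, 5 member UMIs 0% and classes by marker UMIs per barcode 0.521%. For epithelial-like barcodes the 5 settings named first gave 7.48%, 28.3%, 24.8%, 5.39% and 10.75%, and a second random draw 11.98%. Leaving out 1 library gave, for T cells, macrophages and neutrophils, 5.50% to 6.08%, 4.81% to 5.84% and 0.117% to 0.261%. Depth limits the shares, since 3699 of 6188 neutrophil-like barcodes were too shallow.

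Thinning before summing left 7 members to test, and 6 were called between T cells and neutrophils, 5 between macrophages and neutrophils, 2 between T cells and macrophages, 0 between dendritic cells and macrophages, 2 between NK and T cells and 2 between epithelial and T cells. Dendritic cells against macrophages had 8 calls with DESeq2 and 7 with the stricter barcode filter, and NK against T cells 5 with DESeq2 and 0 at Leiden resolution 0.5. There the NK differences turned to 0.45 (Top2a), 0.38 (Mki67), 0.66 (Birc5), 0.44 (Ube2c), 0.44 (Cenpa) and 0.41 (Nusap1). Leaving out 1 library gave 30 to 31 calls for T cells against neutrophils, 27 to 29 for macrophages against neutrophils, 11 to 21 for T cells against macrophages, 8 to 15 for dendritic cells, 4 to 12 for NK cells and 6 to 17 for epithelial cells, where the Mki67 difference ranged from -0.22 without library 3 to 1.06 without library 2.

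Of genes outside the members, T cells had 222 calls with DESeq2 and 266 with 600 UMIs. Macrophages had 424 without a filter, 88 with DESeq2, 85 with 600 UMIs, 394 with 2000 and 113 at a matched cluster mix. Epithelial barcodes had 179 without a filter, 4 with DESeq2, 20 without top doublet scores, 51 with 2000 UMIs and 42 against barcodes with 0 member UMIs. The interaction had 91 with TMM scaling. Leaving out 1 library gave 227 to 415, 53 to 181, 0 to 30 and 27 to 38 calls. Single genes turned in T cells (Cd8a -0.17 in CD8 barcodes, Ly6c2 0.43 and Ccl5 0.066 with 2000 UMIs) and in macrophages (C1qa -0.063 at a matched mix, Sp140 0.19 in the second draw). The cause was not tested.

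Without the replicate block the pairing of sums from the same library was ignored. Calls were then 29, 27, 14, 12, 12 and 13 for the class comparisons in the order above, and 357, 148 and 34 for T cells, macrophages and epithelial barcodes. Of the values for single genes and other classes, 2530 counted as the same. For a gene this meant the same side of the threshold, also where its direction turned without a call in either fit. For a class share it meant a change within 1 SD. Among genes 347 lost the call, 79 gained it and 12 turned with a call in either fit. Class shares moved further than that in 11 cases. Cycling dendritic cells were not compared, and the epithelial comparison was not run with 600 UMIs, a second draw or a matched cluster mix.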
